A study of Canis lupus familiaris with 5 samples.

Results

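The nuclei described here were picked from canine cephalic vein as candidate lymphatic endothelium, by their unique molecular identifiers (UMIs, one per captured transcript) over 6 genes, PROX1, MMRN1, FLT4, RELN, SCN3A and TBX1. A nucleus with at least 100 detected features was taken where it held at least 2 UMIs over these genes, with at least 2 of them detected. The sum also had to exceed each of 3 others, over MYRIP, ALDH1A2 and PALMD (venous endothelium), over DACH1, NR5A2, BTNL9 and NOSTRIN (a capillary-like endothelium), and over LAMA2, SCARA5, SVEP1 and DCN (fibroblasts). The rule took 348 of 6868 nuclei (5.07%), called lymphatic-gate nuclei below. Levels of the 17 rule genes are therefore a description and were not tested.

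Vein was taken from male mongrel dogs of 25 kg whose age the labels do not give. Control vein was an undistended segment (dogs 1 and 2, n = 2 libraries). Distended vein came from the same dogs after cannulation and injection of saline with papaverine and bivalirudin against an occluded outflow, with harvest and distension lasting about 30 minutes (n = 2). Grafted vein had been distended, implanted as a carotid bypass and removed after 24 hours (dog 1, n = 1). Every sample was snap frozen whole wall, so the labels do not say which layer a nucleus lay in.

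Lymphatic vessels drain fluid and leukocytes from tissue and also run in the outer wall of large vessels. The transcription factor PROX1 sets and keeps lymphatic identity, and FLT4 (VEGFR3) receives the growth signal VEGFC. Capillaries that take up fluid carry LYVE1, a hyaluronan receptor, and release the chemokine CCL21, whereas collecting vessels have valves that depend on FOXC2 and on stretch-sensing channels.

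Values for all libraries are given in a fixed order: first the controls of dogs 1 and 2, next the distended veins of dogs 1 and 2, last the graft. In that order the libraries held 1048, 1234, 2162, 242 and 2705 barcodes and 2337436, 1305862, 2667701, 410604 and 11302558 UMIs. The 4 features LOC119877772 to LOC119877775 took 70.4%, 61.4%, 38.5%, 26.5% and 2.98% of the UMIs and were left out of all levels, which are given as CPM of the remaining UMIs. Depth per nucleus moved with condition, with median UMIs of 421, 274, 545.5, 498 and 2350, and its part in the differences between conditions was not tested beyond the thinned counts given below. Pairs of libraries shared 4 barcodes in all, and 0 of these were lymphatic-gate nuclei.

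The gate took 4, 17, 138, 6 and 183 nuclei. This was 0.517% of nuclei in control dog 1 (95% Clopper-Pearson interval 0.141 to 1.32) and 1.63% in control dog 2 (0.954 to 2.60). It was 6.55% in distended dog 1 (5.53 to 7.69), 2.49% in distended dog 2 (0.919 to 5.34) and 6.77% in grafted dog 1 (5.85 to 7.78); intervals cover counting error only. Both distended libraries lay above both controls, but the dog 2 intervals overlapped.

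The mean share was 1.08% ± 0.789 (SD, n = 2) in control and 4.52% ± 2.87 (SD, n = 2) in distended vein. The difference of 3.44 percentage points had an exact two-sided permutation p of 0.333, the smallest that 2 libraries against 2 can give. It was 6.03 points in dog 1 and 0.857 points in dog 2, and in dog 2 it turned to -0.642 points where 3 of the gate genes were required. Set to 200 UMIs per nucleus, with shallower nuclei left out, the gate took 4 of 657, 9 of 749, 104 of 2047, 0 of 239 and 10 of 2704 nuclei. At that depth the share was 0.609%, 1.20%, 5.08%, 0% (up to 1.26% by a floor of 3 nuclei) and 0.370%. The high share of distended dog 1 remained at equal depth, whereas that of the graft lay below both controls. The graft interval (0.177 to 0.679) overlapped those of control dog 1 (0.166 to 1.55) and control dog 2 (0.551 to 2.27). The libraries also differed in other classes. The fibroblast gate, the same rule run for LAMA2, SCARA5, SVEP1 and DCN, took 3.10%, 17.5%, 44.0%, 4.15% and 8.47% of nuclei. The part of this make-up in the lymphatic-gate shares was not tested.

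**Figure D1:**
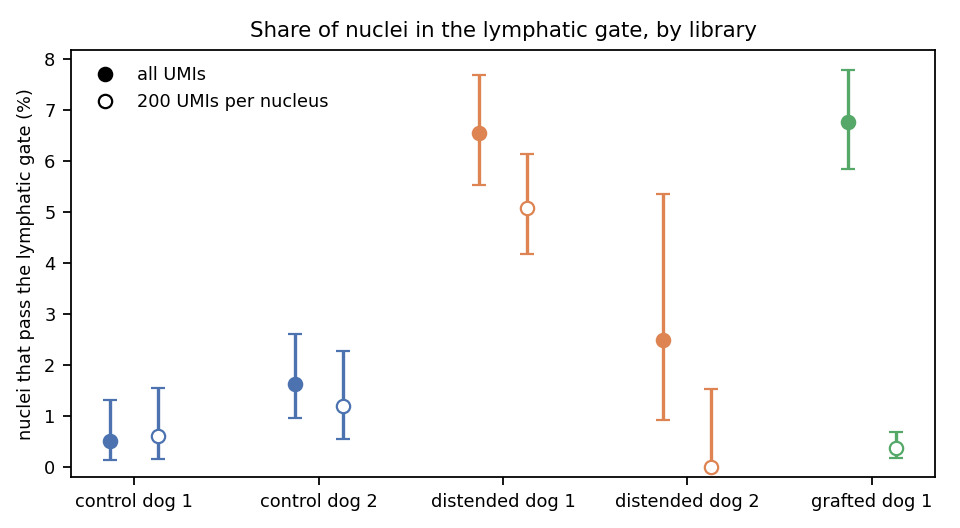
Lymphatic-gate nuclei as a percentage of all kept nuclei in each of the 5 libraries, with 95% Clopper-Pearson bars. Filled points use every UMI and open points use 200 UMIs per nucleus; distended dog 1 stays high at 5.08% and grafted dog 1 drops from 6.77% to 0.370%.

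The gate selected at very different strength across libraries. The 6 genes together held 10025, 16990, 18307, 1262 and 887 CPM of the lymphatic-gate UMIs, and the median nucleus held 3, 4, 11, 2.5 and 4 UMIs over them. Nuclei just inside, with exactly 2 such UMIs, numbered 2, 5, 3, 3 and 40, while 79, 77, 140, 35 and 352 nuclei just outside held 1. At least 4 of the 6 genes were detected in 79 of 138 nuclei of distended dog 1 and in 12 of 183 of the graft.

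MMRN1, which encodes the secreted glycoprotein multimerin, had the most UMIs of the 6 genes in distended dog 1, with levels of 2506, 5737, 9764, 84.1 and 168 CPM. PROX1 was at 2506, 1545, 1291, 0 and 87.3 CPM. FLT4 was at 0, 3310, 2543, 336 and 194 CPM. Distended dog 2, with 6 nuclei, thus had no UMI of PROX1, and control dog 1 none of FLT4.

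RELN, which encodes the secreted guidance protein reelin, was at 2506, 883, 1569, 505 and 367 CPM. TBX1, a T-box transcription factor, was at 1671, 4192, 2096, 336 and 67.8 CPM. SCN3A, a voltage-gated sodium channel subunit, was at 835, 1324, 1043, 0 and 2.34 CPM. Of all SCN3A UMIs in distended dog 1, 105 of 106 lay in lymphatic-gate nuclei, as did 983 of 1050 for MMRN1 and 130 of 168 for PROX1.

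The label was checked on genes the rule did not use and on marker lists that hold some rule genes, and the libraries differed. In distended dog 1 the lymphatic-gate nuclei carried LYVE1, PDPN, CCL21, PIEZO2 and SEMA3A, all 11 pan-endothelial markers, and 0 UMIs of the venous receptor ACKR1. The other 6 of 7 listed venous markers were detected there, in 48.6% of nuclei. Together they held 122 UMIs, or 1212 CPM, against 8444 CPM in its venous-gate nuclei, a contrast that follows in part from the rule. In control dog 2 the 7 markers summed to 1324 CPM (6 UMIs). In control dog 2, with 17 nuclei and 4532 UMIs, LYVE1, PDPN, PIEZO2 and SEMA3A were present at 1 to 5 UMIs each. In control dog 1 LYVE1, PDPN, CCL21 and PIEZO2 were at 0 and 6 UMIs of fibroblast markers were present, but its 4 nuclei held 1197 UMIs, too few to check the label. Distended dog 2 went against the label, on few nuclei: its 6 nuclei held 11888 UMIs with 0 of these 4 genes. Their 7 venous markers, which include MYRIP, ALDH1A2 and PALMD of the rule, summed to 2692 CPM (32 UMIs). In its 5 venous-gate nuclei they summed to 2139 CPM. Of the 11888 UMIs, 1 nucleus held 6505, and 2 of the 6 nuclei held at least 2 venous-marker UMIs. One UMI was worth 835 CPM in control dog 1 and 84.1 CPM in distended dog 2.

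In the graft the summed nuclei went against the label, unevenly. LYVE1 was found in 8 of 183 nuclei, CCL21 and SCN3B were at 0, and SCN3A at 3 UMIs. The venous gate is the same rule run for MYRIP, ALDH1A2 and PALMD. These are among the 7 venous markers, so a lower marker sum partly follows from the choice. The 7 venous markers summed to 2980 CPM in the 183 nuclei, against 4346 CPM in graft nuclei of the venous gate. Most of this sum was ACKR1, a chemokine receptor of venular endothelium, with 2868 UMIs in 90 nuclei. A group of 20 nuclei with at least 20 ACKR1 UMIs each, a limit set after the values were seen, held 2721 of these.

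The other 163 graft nuclei held 147 UMIs of ACKR1, or 191 CPM, against 226 CPM in venous-gate nuclei under the same limit. Their venous markers summed to 1043 CPM against 1714 CPM, and their 6 gate genes to 1260 against 186 CPM. Both differences follow at least in part from the gates, so they are a description. The 163 nuclei also held 36 of the 37 PIEZO2 and all 40 SEMA3A UMIs. The 183 nuclei were deep, at a median of 4095 UMIs, and 166 of them held at least 1000 UMIs. They are called rule-selected graft nuclei, and the test against venous nuclei is also given without them.

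To show the nuclei one by one, 9 genes outside the rule were counted: LYVE1, PIEZO2, SEMA3A, SEMA3D, UNC5B, KLHL4, SCN3B, PLEKHG4B and BAIAP3. They were chosen after their values were seen, for being high in distended dog 1, so that a higher count in that library follows from the choice and the counts are a description. At least 1 was detected in 1 of 4, 10 of 17, 125 of 138, 0 of 6 and 53 of 183 lymphatic-gate nuclei. In venous-gate nuclei the share was 7.43%, 4.65%, 3.11%, 0% and 13.7%. At 200 UMIs per nucleus, 67.9% of lymphatic-gate nuclei of distended dog 1 held 1 or more, against 0.781% of venous-gate and 8.35% of fibroblast-gate nuclei. The graft had 7.10%, 0.429% and 1.75% in the same classes.

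**Figure D2:**
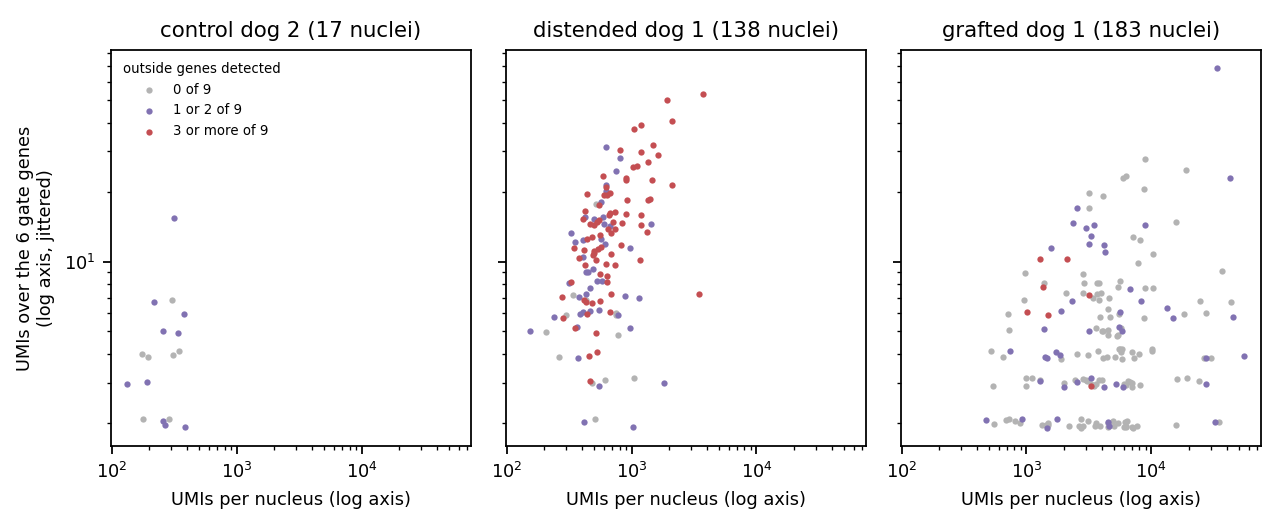
Each point is a lymphatic-gate nucleus of control dog 2, distended dog 1 or grafted dog 1, with its UMIs on the horizontal log axis and its UMIs over the 6 gate genes on the vertical log axis; colour gives how many of the 9 genes outside the rule were detected. At least 3 of the 9 were found in 81 nuclei of distended dog 1 and in 7 of the graft.

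Markers of other cell types were low in distended dog 1. The 11 fibroblast markers summed to 258 CPM, against 17653 CPM in fibroblast-gate nuclei, and LUM, C7 and FBLN1 were at 0. LAMA2, SCARA5, SVEP1 and DCN are among the 11 and were set against the gate genes, so part of this contrast follows from the rule. Smooth muscle and pericyte markers summed to 179 CPM, with 4 of 11 detected. Macrophage markers summed to 517 CPM, almost all from MRC1, which lymphatic endothelium also expresses, while CD163, F13A1, CSF1R, CD68 and C1QA were at 0. The rule-selected graft nuclei held 391 CPM of neutrophil markers, with 7 of 7 detected, and 42 of the 183 nuclei held at least 2 such UMIs. These markers were also present in the other graft classes, at 245 CPM in venous-gate and 296 CPM in fibroblast-gate nuclei. The part of these transcripts in the graft values was not tested.

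To learn which genes differ between lymphatic-gate and venous endothelial nuclei, UMIs were summed per library and class in control dog 2, distended dog 1 and grafted dog 1, the libraries with at least 10 nuclei of both. The venous gate held 129, 257 and 233 nuclei there, with median UMIs of 417, 833 and 6175 against 267, 576 and 4095 in the lymphatic gate. Of 5505 genes outside the rule, 62 were higher in lymphatic-gate sums (1.13%) and 8 lower (0.145%) at an adjusted p under 0.05 (edgeR quasi-likelihood test with library as a block, Benjamini-Hochberg), and 307 had an unadjusted p under 0.05 (5.58%). The fit had 2 residual degrees of freedom, and its p-values measure only the spread between these libraries. Without distended dog 1 the count fell from 70 to 11, of which 6 were among the 70; without the graft it was 268, of which 60 were among the 70. Without the graft the log2 fold change of several genes named below was larger: 8.65 in place of 5.54 for SEMA3A, 8.82 in place of 5.18 for BAIAP3, 6.88 in place of 4.22 for UNC5B, and -9.34 in place of -2.95 for CDO1.

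PIEZO2, a stretch-activated cation channel, had the largest difference of the named genes. Its level in lymphatic-gate nuclei was 0, 1103, 1569, 0 and 28.8 CPM, against 4.79, 15.5, 0, 0 and 0 CPM in venous-gate nuclei. The log2 fold change was 8.18 (SE 1.08, edgeR adjusted p = 8.4e-11). In distended dog 1 a UMI of PIEZO2 was found in 71 of 138 lymphatic-gate nuclei (51.4%) and 3.12% of fibroblast-gate nuclei, whose median depth was 560.5 UMIs. The ratio to venous-gate nuclei there was at least 148-fold higher, against a floor of 3 UMIs over the venous sum.

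Classical lymphatic markers outside the rule were mixed in the test. LYVE1 was at 0, 221, 1331, 0 and 8.57 CPM in lymphatic-gate and 38.4, 15.5, 7.09, 0 and 14.1 CPM in venous-gate nuclei. In distended dog 1 it stood 188-fold above venous-gate nuclei (95% counting interval 51.0 to 1566) and was found in 48.6% of nuclei, against 0.323% of fibroblast-gate nuclei. In the graft it was the lower of the pair. Nuclei there with at least 20 ACKR1 UMIs held 28 venous-gate and 7 lymphatic-gate LYVE1 UMIs. In the other graft nuclei LYVE1 was at 5.21 CPM (4 UMIs) in the lymphatic and 3.86 CPM (5 UMIs) in the venous gate. Over the 3 libraries its log2 fold change of 2.79 (SE 0.95) did not pass (edgeR adjusted p = 0.17).

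PDPN, the membrane glycoprotein podoplanin, was at 0, 221, 308, 0 and 54.5 CPM, against 19.6 CPM in the venous-gate graft nuclei and 0 elsewhere. It was higher by 2.85 on the log2 scale (SE 0.58, edgeR adjusted p = 0.00014). Fibroblasts also carry PDPN: it was found in 15.9% of lymphatic-gate and 5.06% of fibroblast-gate nuclei of distended dog 1, and in 14.8% and 53.7% in the graft. CCL21, which draws CCR7-bearing leukocytes into lymphatics, had 10 UMIs in all of distended dog 1, and all 10 lay in 9 lymphatic-gate nuclei; it fell below the count filter and was not tested.

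Of the 30 listed lymphatic identity genes outside the rule, 21 were tested. Of these, 7 were higher (PDPN, FGL2, SEMA3A, SEMA3D, EFNA5, TIMP3 and AKAP12) and 0 lower. Over all genes tested 1.13% were higher and 0.145% lower, shares that also stand beside the list counts below. The median log2 fold change of the 21 was 1.06, beside -0.15 over all genes tested. The lists were chosen with earlier results of these data known, and they share genes. SEMA3A, SEMA3D and EFNA5 are counted again among the guidance genes, PIEZO2 under both ion channels and valves, and KDR under both growth signalling and pan-endothelial genes. AKAP12, a scaffold for protein kinase A, was at 6683, 5737, 2245, 84.1 and 177 CPM and differed by 3.71 (SE 0.85, edgeR adjusted p = 0.0015). It was found in 52.2% of lymphatic-gate and 33.1% of fibroblast-gate nuclei of distended dog 1. TIMP3, an inhibitor of metalloproteinases, differed by 3.31 (SE 0.61, edgeR adjusted p = 1.9e-05).

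Guidance genes, whose products steer axons and vessel sprouts, were described by 20 listed genes, of which 15 were tested and 4 were higher (median log2 fold change 0.34). SEMA3A, a secreted semaphorin that acts in lymphatic valve formation, was at 0, 441, 477, 0 and 31.2 CPM, against 1.70 CPM in the venous-gate graft nuclei and 0 elsewhere. It differed by 5.54 (SE 0.73, edgeR adjusted p = 8.4e-11). UNC5B, a netrin receptor, was at 0, 221, 576, 0 and 32.7 CPM and differed by 4.22 (SE 0.67, edgeR adjusted p = 2.8e-07).

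SEMA3D differed from venous-gate nuclei by 3.79 (SE 0.63, edgeR adjusted p = 8e-07), at 0, 441, 457, 0 and 21.8 CPM. It was also a fibroblast transcript: at 200 UMIs per nucleus it was found in 7.30% of lymphatic-gate and 7.05% of fibroblast-gate nuclei of distended dog 1. SEMA3A gave 23.9% and 0.754% there at full depth. The netrin gene NTN1, at 1324 and 1132 CPM in control dog 2 and distended dog 1, had a log2 fold change of 0.89 and did not pass.

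Of 14 listed ion channel genes 3 were tested, and SCN3B and PIEZO2 were higher. SCN3B, an auxiliary subunit of voltage-gated sodium channels, was at 835, 221, 248, 0 and 0 CPM, and 25 of its 26 UMIs in distended dog 1 lay in lymphatic-gate nuclei. It differed by 5.48 (SE 1.20, edgeR adjusted p = 0.00069).

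Growth and flow signalling held 1 called gene among 17 tested of 27 listed, with a median of -0.01. KDR (VEGFR2), a receptor for VEGF ligands, was at 0, 441, 248, 0 and 46.7 CPM, against 0, 0, 7.09, 0 and 34.1 CPM in venous-gate nuclei. It differed by 1.97 (SE 0.56, edgeR adjusted p = 0.032). ANGPT2, a TIE2 ligand, had a log2 fold change of 1.87 (adjusted p = 0.2), and in control dog 1 its 10 UMIs all lay in 1 nucleus.

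For valves and collecting vessels, 13 of 21 listed genes were tested, and PIEZO2 and SCG3 were higher (median 0.38). FOXC2, the valve transcription factor, had 6 UMIs in distended dog 1 and 14 in the graft and was not tested. PKHD1L1 was at 1639 CPM in lymphatic-gate and 1780 CPM in venous-gate nuclei of distended dog 1, with a log2 fold change of -0.32 that did not pass. Of 6 tested chemokine and leukocyte passage genes, MRC1, the mannose receptor, was higher, at 0, 662, 507, 0 and 54.5 CPM (log2 fold change 3.08, SE 0.60, edgeR adjusted p = 6.4e-05).

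Several of the highest genes had no place in the lists. PLEKHG4B was at 0, 441, 934, 0 and 4.67 CPM, against 0.426 CPM in the venous-gate graft nuclei and 0 elsewhere (log2 fold change 7.26, SE 1.07, edgeR adjusted p = 1.2e-08). Lymphatic-gate nuclei held 94 of its 96 UMIs in distended dog 1. BAIAP3, which acts in vesicle trafficking, held 55 of 59 there and differed by 5.18 (SE 0.85).

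PLCE1, phospholipase C epsilon, was at 0, 1986, 1420, 0 and 55.3 CPM and differed by 5.93 (SE 0.83, edgeR adjusted p = 7.8e-10), yet was also found in 35.2% of fibroblast-gate nuclei of distended dog 1. MME, the endopeptidase neprilysin, differed by 5.95 (SE 1.09) but lay in 7 of 138 nuclei of distended dog 1 and 12 of 183 of the graft. The receptor phosphatase PTPRD differed by 3.91 (SE 0.60); it was found in 15.9% of lymphatic-gate and 31.8% of fibroblast-gate nuclei of distended dog 1, and without that library it did not pass (adjusted p = 1 in edgeR). The 15 genes named for the largest increases had a symbol, at least 20 UMIs and 1 direction in every library, and included KHDRBS2, PRKCZ, MYO7A, GPR157, ABI3BP, SCG3 and CCDC141, with log2 fold changes of 3.93 to 4.87. Outside that rule lay LRRC14B at 6.84 (19 UMIs), PLAC9 at 6.42 (15 UMIs) and NEBL at 4.51. Without distended dog 1, PLCE1 (edgeR adjusted p = 0.091), PRKCZ, ABI3BP and CCDC141 also did not pass. PLEKHG4B, BAIAP3, MYO7A, GPR157 and SCG3 were not fitted without it. Of 16 named genes, higher and lower, that were fitted in that setting, 5 kept their call. KLHL4, at 685 CPM in distended dog 1 and 17.7 CPM in its venous-gate nuclei, held 69 of 79 UMIs there but was too low to be tested.

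Lower in lymphatic-gate nuclei were, among others, ADAMTS18, SELENOP, CDO1, SFRP1 and ADGRB3. SELENOP, a selenium carrier protein, was at 0, 0, 39.7, 0 and 31.2 CPM, against 3606, 806, 1539, 168 and 99.7 CPM in venous-gate nuclei. It differed by -3.48 (SE 0.81, edgeR adjusted p = 0.0019). CDO1, cysteine dioxygenase, was at 0 in distended dog 1 against 723 CPM, and at 233 CPM in the graft against 375 CPM; it differed by -2.95 (SE 0.82, edgeR adjusted p = 0.027). Without distended dog 1 none of ADAMTS18, SELENOP, CDO1, SFRP1 and ADGRB3 passed.

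VWF and PTPRB, venous-high in distended dog 1, were level in the graft, a contrast between the libraries that was not tested. In distended dog 1, VWF, the platelet-binding von Willebrand factor, was at 556 CPM in lymphatic-gate and 2907 CPM in venous-gate nuclei, a ratio of 0.191 (95% counting interval 0.143 to 0.251). PTPRB, a vascular endothelial phosphatase, was at 755 and 4279 CPM, a ratio of 0.176 (0.138 to 0.223). In the graft the pairs were 446 and 456 CPM for VWF and 386 and 356 CPM for PTPRB, and over the 3 libraries neither passed in edgeR (adjusted p = 0.55 and 0.25). Other venous-high genes stayed lower in the rule-selected graft nuclei, with ratios of 0.698 (0.668 to 0.729) for ACKR1, 0.622 (0.544 to 0.710) for CDO1 and 0.313 (0.218 to 0.439) for SELENOP. The first 2 rest mostly on nuclei with at least 20 ACKR1 UMIs. There, 20 rule-selected nuclei held 2721 ACKR1 and 257 CDO1 UMIs, and 35 venous-gate nuclei held 7220 and 763. In the other nuclei the pairs were 191 and 226 CPM for ACKR1, 54.7 and 89.5 CPM for CDO1 and 27.3 and 74.8 CPM for SELENOP.

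ACKR1 was at 0, 0, 0, 0 and 2234 CPM in lymphatic-gate nuclei (191 CPM in the graft without the 20 richest nuclei), against 398, 93.0, 234, 1090 and 3201 CPM in venous-gate nuclei. None of 138 lymphatic-gate nuclei of distended dog 1 held a UMI, against 10.1% of venous-gate nuclei. In the graft, 49.2% of rule-selected and 67.0% of venous-gate nuclei did, with 14.8% of fibroblast-gate nuclei. At 200 UMIs per nucleus these graft counts were 21 of 183, 28 of 233 and 7 of 229 nuclei.

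**Figure D3:**
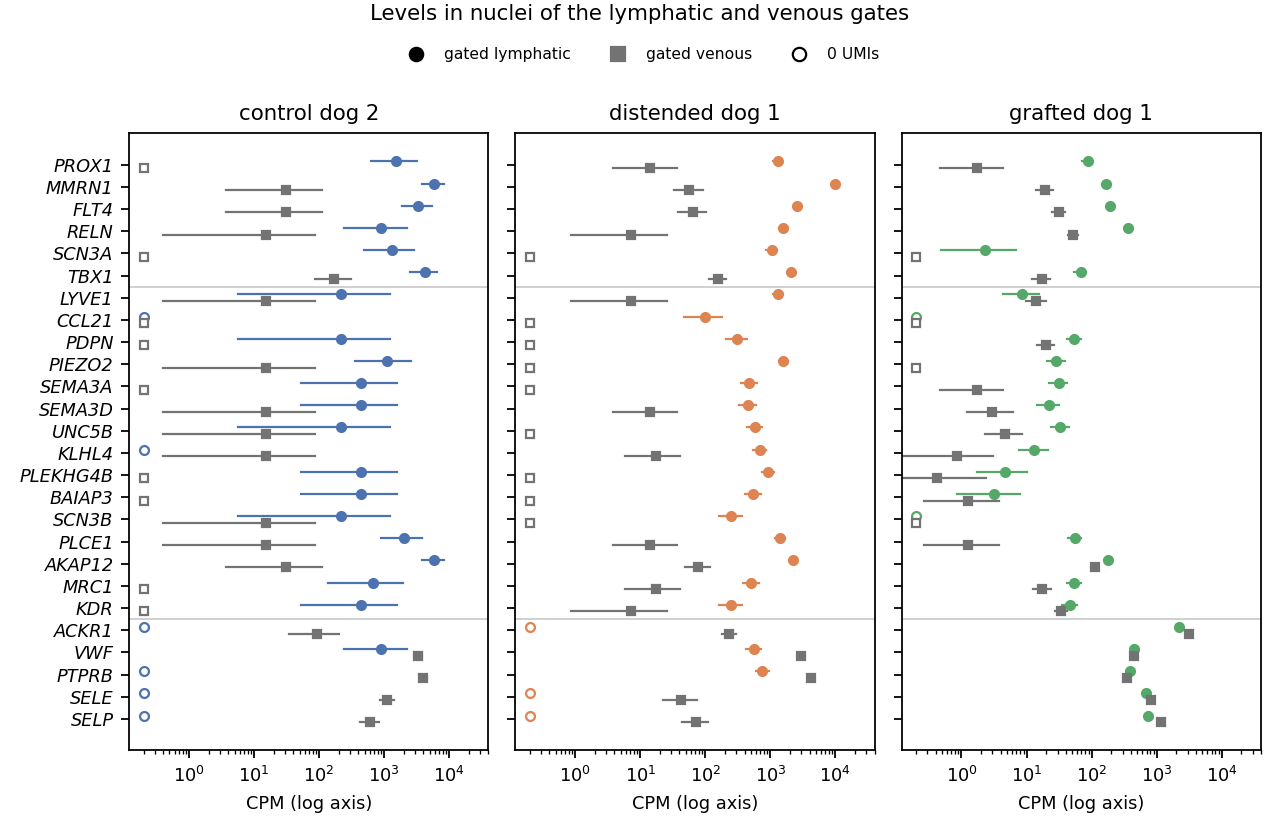
CPM on a log axis for the 6 gate genes, 15 genes outside the rule and 5 venous genes, in lymphatic-gate (circles) and venous-gate (squares) nuclei of control dog 2, distended dog 1 and grafted dog 1, with 95% Poisson bars and open symbols for 0 UMIs. LYVE1 is far apart in distended dog 1 (1331 against 7.09 CPM) and close in the graft (8.57 against 14.1 CPM), whereas SEMA3A stays apart in the graft (31.2 against 1.70 CPM).

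Shared endothelial genes differed in sum between the classes, but few passed singly. The listed pan-endothelial genes summed to 5013, 6620, 6715, 9674 and 6603 CPM in lymphatic-gate nuclei, against 13795, 15337, 17012, 3606 and 6146 CPM in venous-gate nuclei, so both controls and distended dog 1 were lower and distended dog 2 and the graft were not. Of 17 tested pan-endothelial genes 1 was higher (KDR) and 0 lower, with a median of -0.62. PECAM1, a junction protein, was at 983 CPM in lymphatic-gate and 1748 CPM in venous-gate nuclei of distended dog 1, and at 755 and 733 CPM in the graft. None of the 13 immediate early, 11 NF-kB and cytokine, 6 hypoxia, 13 cell cycle and 6 lipid genes tested was called, at medians of 0.39, -0.36, 0.04, 0.05 and -0.19. Of 13 tested migration genes, the metalloproteinase ADAM12 was higher (2.58, SE 0.66, edgeR adjusted p = 0.0087).

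**Figure D4:**
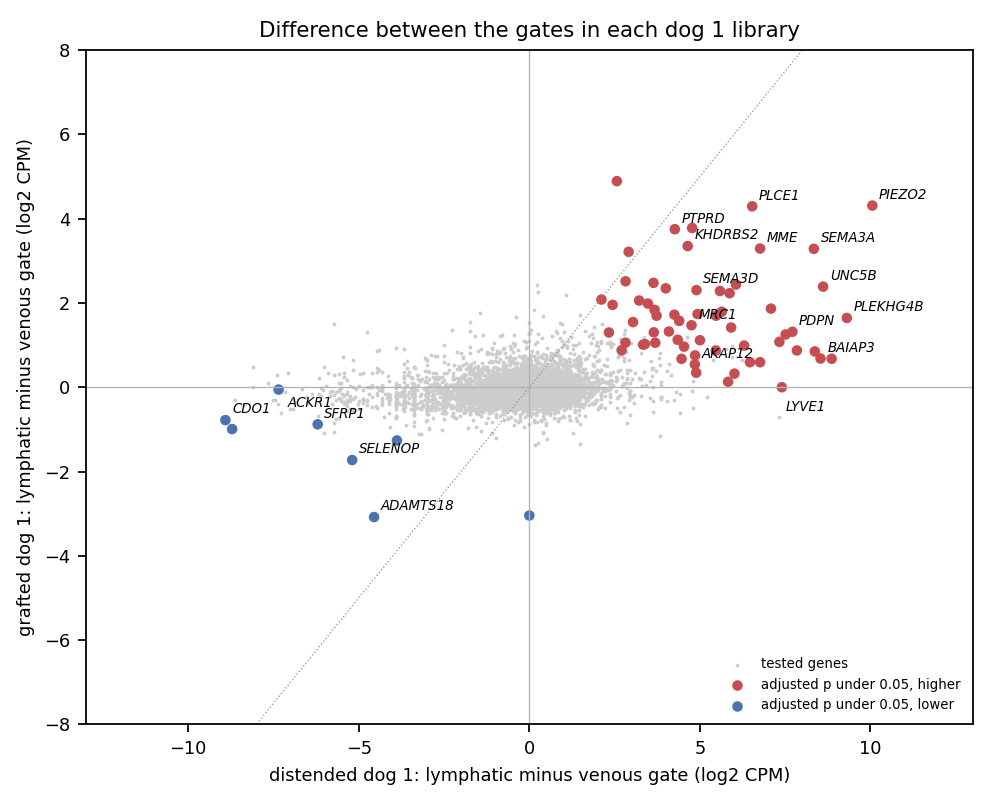
Each point is a gene tested between lymphatic-gate and venous-gate nuclei, with the log2 CPM difference in distended dog 1 on the horizontal and in grafted dog 1 on the vertical axis; coloured points passed the edgeR test over 3 libraries (62 higher, 8 lower), and the dotted line marks equal differences. For SEMA3A the differences were 8.34 and 3.29.

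Against the capillary-like gate the data were thin, with 22 nuclei in distended dog 1 and 30 in the graft. Of 2508 genes 0 passed in edgeR (0%), 176 had an unadjusted p under 0.05 (7.02%), and DESeq2 called 16. PLCE1 and PLEKHG4B had 0 UMIs in capillary-like nuclei of both libraries, and PIEZO2 had 0 and 2. PTPRD had a log2 fold change of 5.10 with an adjusted p of 0.215 in edgeR.

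Among the 138 nuclei of distended dog 1, LYVE1 was unevenly spread. The 67 nuclei with a LYVE1 UMI held 621 of 983 MMRN1 UMIs and 37 of 51 MRC1 UMIs, and 0 of 6 of FOXC2. A group of 10 nuclei with at least 2 UMIs over MME, ANO4 and SH3GL3 held 0 UMIs of LYVE1 and of PIEZO2, but 17 of 130 of PROX1, 4 of 6 of FOXC2, 22 of 43 of PTPRD and 9 of 9 of NEBL. In the graft, 20 rule-selected nuclei met the same cut and held 41 of 112 PROX1 UMIs, 7 of 14 of FOXC2 and 0 of 216 of MMRN1. These 20 nuclei also held 2 of 11 LYVE1 UMIs and 247 of 2868 ACKR1 UMIs. Their ACKR1 level was 2619 CPM, beside 2234 CPM over all 183. In distended dog 1, PROX1 with FOXC2 and PROX1 with LYVE1 and MMRN1 thus lay in partly different nuclei, on few FOXC2 UMIs. All these groups were cut on their own transcripts, so nothing was tested.

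The rule-selected graft nuclei were also mixed. The 90 with an ACKR1 UMI had a median of 5943.5 UMIs and held 3 of the 37 PIEZO2 UMIs, against 3129 UMIs and 34 of 37 in the 93 without. Among the 93, 7 nuclei held at least 3 of the 9 genes outside the rule, with 28 UMIs of PIEZO2 and 39 of MRC1. PIEZO2 is 1 of the 9, so its count follows in part from the choice. The 10 graft nuclei that met the rule also at 200 UMIs held 1 UMI of ACKR1. Their 5793 CPM over the 6 gate genes follows from the choice. Both groups were shallow, at medians of 1480 and 992 UMIs beside 4095 over all 183. The part of depth in their ACKR1 counts was not tested.

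At the chosen minimum of 10 nuclei, conditions within lymphatic-gate nuclei had no test, because the 3 libraries that met it left no residual degree of freedom. With at least 5 nuclei, edgeR on 4 libraries (1 residual degree of freedom) called 0 of 3472 genes for distended and for grafted against control, with 59 and 184 at an unadjusted p under 0.05. Dog 1 libraries were therefore compared by size, taking genes with a fold of at least 3, at least 10 UMIs on the higher side and 95% Poisson intervals that did not overlap. Distended against control gave 0 higher (0%) and 3 lower (0.157%) of 1909 genes, ANGPT2, CALD1 and RBM25. Grafted against control gave 0 higher (0%) and 4 lower (0.0387%) of 10329. The control side of both is 4 nuclei, and the 10 UMIs of ANGPT2 on it lay in 1 of them.

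With control dog 2 in its place, chosen after the values were seen, distended dog 1 had 4 higher (0.265%) and 3 lower (0.199%) of 1508 genes. KLF4, a transcription factor induced by flow, was at 2811 CPM against 662 CPM, and the kinase gene STK39 at 2066 against 221 CPM. AHNAK, a large scaffold protein gene, was at 8036 against 28023 CPM. In venous-gate nuclei of the same libraries the pairs were 954 against 1162 CPM for KLF4 and 117 against 108 CPM for STK39. For AHNAK they were 4343 against 13943 CPM, so it was lower in both classes. The higher KLF4 of distended dog 1 was not limited to lymphatic-gate nuclei. In fibroblast-gate nuclei KLF4 was found in 63.5% in distended dog 1 against 18.7% in control dog 2. In the thinned counts these shares were 34.1% against 13.5%. This contrast sets different dogs side by side, so dog and distension cannot be told apart.

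KLF4 and the immediate early genes EGR1 and FOS, which are switched on soon after a stimulus, had higher levels in lymphatic-gate than in venous-gate nuclei of distended dog 1. KLF4 was at 2811 CPM in lymphatic-gate and 954 CPM in venous-gate nuclei, a ratio of 2.95 (2.49 to 3.50). EGR1 was at 1460 and 78.0 CPM, a ratio of 18.7 (11.9 to 30.8), and FOS at 1152 and 312 CPM. KLF4 was also found in 63.5% of fibroblast-gate nuclei of that library, against 76.8% of lymphatic-gate and 47.5% of venous-gate nuclei. In control dog 2 KLF4 ran the other way, at 662 and 1162 CPM. The EGR1 levels there were 1986 and 1053 CPM, a direction that the scaling of the fit turned (log2 difference -0.35), and over the 3 libraries none of KLF4, EGR1 and FOS passed in edgeR.

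Grafted against distended vein of dog 1, a contrast also added after the values were seen, gave 1003 higher (11%) and 650 lower (7.14%) of 9101 genes. It has 1 library a side, and the sum of its graft nuclei went against the label. Of 22 lymphatic identity genes with enough UMIs, 17 were lower and SOX18 was higher. LYVE1 was at 8.57 against 1331 CPM, SCN3B at 0 against 248 CPM, and BAIAP3 at 3.12 against 546 CPM.

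Of 13 immediate early genes 10 were lower and 1 higher in that contrast. The graft-to-distended ratio was 0.0119 for KLF4 and 0.0392 for FOS in lymphatic-gate nuclei, and 0.0389 and 0.0792 in venous-gate nuclei. Of 13 NF-kB and cytokine genes 6 were higher (IL6, CXCL8, CCL2, SOD2, PTX3 and CSF3) and 0 lower. CSF3, the neutrophil growth factor G-CSF, was at 1057 CPM in rule-selected and 1024 CPM in venous-gate graft nuclei. SOD2, mitochondrial superoxide dismutase, had ratios of 31.0 and 30.2 in the lymphatic and venous gates.

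Adhesion genes were present in both graft classes. SELE (E-selectin) was at 686 CPM in rule-selected and 825 CPM in venous-gate graft nuclei, and SELP (P-selectin) at 742 and 1149 CPM, against 0 of both in lymphatic-gate nuclei of distended dog 1. The 20 rule-selected nuclei with at least 20 ACKR1 UMIs held 500 SELE and 677 SELP UMIs, and the other 163 held 380 and 275. Without such nuclei the pairs were 495 and 603 CPM for SELE and 358 and 638 CPM for SELP. EGR1 and LYVE1 had unlike graft-to-distended ratios in the classes, of 0.0235 and 0.0064 in the lymphatic and 0.508 and 1.98 in the venous gate. In the venous gate LYVE1 was found in 2 of 257 nuclei of distended dog 1. In the graft, 35 venous-gate nuclei with at least 20 ACKR1 UMIs held 28 LYVE1 UMIs, and the other 198 held 5. Whether the ratios differ between the classes was not tested, since each rests on 1 library a side.

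The lymphatic genes were also followed over all kept nuclei, without a gate, where fewer lymphatic cells and less RNA per cell cannot be told apart. MMRN1 was at 56.2, 124, 740, 45.7 and 33.2 CPM of whole vein, and LYVE1 at 37.5, 31.8, 133, 49.2 and 9.24 CPM. PIEZO2 was at 4.17, 79.4, 145, 7.03 and 7.52 CPM. Distended dog 1 was the highest library for all of them, and distended dog 2 lay within or below the controls for MMRN1 and PIEZO2.

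Of 10626 genes, edgeR called 0 (0%) for distended and 0 (0%) for grafted against control over whole vein, with 130 (1.22%) and 804 (7.57%) at an unadjusted p under 0.05 and 1 and 100 genes called by DESeq2. Without distended dog 1 edgeR called 216 and 511 genes, and without distended dog 2 it called 409 for grafted vein. Of 36 listed lymphatic genes outside the rule 29 were tested. For 5 of them (17.2%: CD9, EFNA5, KLHL4, LYVE1 and ST6GALNAC3) both distended libraries lay above both controls, beside 12.1% of all genes. Their median log2 fold change was 0.84 for distended and -1.47 for grafted vein, beside 0.07 and 0.05 over all genes, and the lowest adjusted p in edgeR was 1 and 0.607.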

How the data were processed

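Nuclear RNA of 5 libraries was measured by droplet single-nucleus sequencing. The values used are raw UMI counts as deposited by the authors, who ran version 7.0.0 of Cell Ranger, as the headers and the submitters' processing notes state. No source used here names a genome build. Of 35120 gene names, 33472 were found in a RefSeq table of the assembly UU_Cfam_GSD_1.0. Barcodes with under 100 features (523 of 7391) were removed, and 24 features naming no gene (0.588% to 11.5% of UMIs) and 4 dominant features were left out. Scrublet in scanpy 1.11.5 marked 39 nuclei (0.568%) as doublets, among them 2 lymphatic-gate nuclei; they were kept, and removed in an alternative. Free RNA was not corrected.

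Raw counts were summed per library and class and tested in R 4.3.3 with the quasi-likelihood method of edgeR 4.0.16 (TMM, filterByExpr, two-sided, threshold 0.05), with DESeq2 1.42.0 as an alternative. On data simulated for the lymphatic against venous comparison (5515 genes) it recovered 39% of 4-fold and 84% of 16-fold changes. Printed CPM and within-library ratios are without TMM factors. Fold bounds use a floor of 3 UMIs. Genes were named where they were list members with 20 UMIs or defining markers at 0, or were the 15 highest and up to 10 lowest called genes with a symbol and 1 direction in every library (the highest with 20 UMIs); size comparisons named up to 10 each way. The nuclei, lists and tests were chosen with earlier results of these data known. Control and distended vein are paired by dog, per the labels.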

Additional observations from a re-analysis of the deposited data

Results flagged for a closer look

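At 200 UMIs per nucleus the share of lymphatic-gate nuclei moved in opposite directions in the 2 dogs between control and distended vein. It was higher by 4.47 percentage points in distended vein of dog 1 and differed by -1.20 points in dog 2, where 0 of 239 nuclei met the rule. The difference between the dogs was not tested.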

How the results depend on the processing

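The mean share difference between distended and control vein kept its direction in every alternative run. As a share of all nuclei counted it ran from 1.64 to 3.57 points, and from 1.41 to 5.47 without 1 library. Paired by dog (replicate block) it was 3.44 points. As a share of endothelial-gate nuclei, another denominator, it was 32.5 points. Within dog 2 it turned, to -0.642 with 3 gate genes required (exact permutation p = 0.667 over all 4 libraries) and to -1.20 at 200 UMIs per nucleus (exact permutation p = 1). Grafted minus control was 5.69 points; it turned to -0.535 at 200 UMIs per nucleus, was 1.32 with 3 gate genes required and 33.9 as a share of endothelial-gate nuclei, and ranged from 5.13 to 6.25 without 1 library. The cause of these changes was not tested.

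The 70 genes called against venous-gate nuclei became 37 at 200 UMIs per nucleus, 31 in DESeq2, 38 with libraries of 5 nuclei, 0 with no replicate block for library, and 11 to 268 without 1 library (11 without distended dog 1, 268 without grafted dog 1). Of 241 pairs of a named gene and an alternative, 193 kept their call, 48 lost it and 0 changed direction. Against capillary-like nuclei DESeq2 called 16 genes and no low-count filter 99, in place of 0. Over whole vein, distended against control gave 1 in DESeq2, 11 with no low-count filter and 0 to 216 without 1 library (216 without distended dog 1). Grafted against control gave 100, 304 and 0 to 511 (511 without distended dog 1, 409 without distended dog 2). The dog as a replicate block gave 0 calls in both. The size comparison of distended with control, 3 genes, became 7 with control dog 2, 1 with 200 features and 5 with the dominant features kept; that of grafted with control, 4 genes, became 38, 1 and 9. Not run for want of residual degrees of freedom were the fits within lymphatic-gate nuclei of at least 10 per library (DESeq2, no filter, dog block, each library left out) and each library left out against capillary-like nuclei. With 3 gate genes required control dog 1 held 0 nuclei, so its size comparisons gave no value.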
